A study of Mus musculus with 21 samples.

Results

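Ribosomal protein genes encode the protein part of the cytosolic ribosome, and this report follows their mRNAs in inflammatory monocytes (IMs) from bone marrow (BM) and from lung squamous cancers of mice. The 76 genes were taken by name, as every row whose symbol is Rpl or Rps with a number (with or without a final a or x), Rplp0 to Rplp2, or Rpsa, out of 23420 gene symbols; 46 belong to the large subunit and 30 to the small subunit. The rule reads symbols and no measured value. Of the 76 genes, 75 passed the filter on low counts in every comparison, and Rpl26 did not, with no more than 4 reads in any library. Members whose symbols fall outside the pattern (such as Fau, Rps3a1 and Gnb2l1, now called Rack1) are described beside the related genes.

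The ribosome has a small subunit, which reads the mRNA, and a large subunit, which joins the amino acids, and each ribosome carries a single copy of nearly every ribosomal protein. The acidic proteins P1 and P2 are the exception, since they bind P0 as pairs and form the stalk that recruits elongation factors. Mammalian ribosomal protein mRNAs begin with a run of pyrimidines, the 5′ terminal oligopyrimidine or 5′ TOP motif, through which mTOR and LARP1 control their translation and stability. Growing and dividing cells make many ribosomes, and resting leukocytes make fewer.

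The 21 libraries are RNA-Seq of sorted IMs in 5 groups. BM IMs came from non–tumor-bearing FVB mice (3 libraries) and DBA2 mice (3 libraries), both labelled healthy. Tumor inflammatory monocytes (TIMs) came from FVB mice whose lungs were injected orthotopically with KAL-LN2E1 (LN2E1) cells, either from the primary tumors (5 libraries) or from lymph node metastases (5 libraries), and from the lungs of DBA2 mice injected intravenously with LN4K1 cells (5 libraries). The injected mice were of both sexes and 8 to 15 weeks old at injection, no genetic change in the mice is given for any group, and both tumor lines are mouse lung squamous carcinoma lines. Cells were enriched with a monocyte isolation kit and sorted as live SiglecF- CD45+ CD11b+ Ly6G- Ly6Chi cells, so a TIM library holds the monocytes of a tissue and any other cell that passed the gate. The tumor line, the mouse strain, the route of injection and the tissue all differ between the LN2E1 and LN4K1 models and cannot be told apart, and neither can tumor and tissue of origin within a comparison of TIMs with BM IMs. The labels number the replicates and do not say whether each is 1 animal or a pool, and the study's methods call them technical replicates. The p-values and errors therefore measure the spread between these libraries, which may not include the spread between animals.

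Library totals ran from 80772922 to 101043568 counts. The monocyte markers (8 of 8 listed, none at 0) summed to between 41115 and 126882 CPM per library, where CPM is the count of a gene per 1000000 counts after TMM scaling of the libraries, and those of B, T and NK cells stayed at or below 54.5 CPM in every library. The summed cycling markers (8 genes) were at 1487 to 1700 CPM in the 6 BM libraries and at 82.4 to 167 CPM in the 15 TIM libraries. Neutrophil precursor markers (6 genes) summed to 2708 to 4872 CPM in BM IMs and 14.2 to 478 CPM in TIMs, and eosinophil markers (4 measured of 5) to 417 to 1082 CPM against 0 to 66.5 CPM. Fibroblast markers (5 genes) reached 363 to 1099 CPM in LN2E1 primary TIMs and at most 86.8 CPM elsewhere, and lung epithelium markers (5 genes) 130 to 744 CPM against at most 94.3 CPM. Squamous epithelium markers (7 genes) stayed at or below 37.7 CPM. Macrophage markers (5 measured of 6) summed to 710 to 1872 CPM in BM IMs and 2093 to 5211 CPM in TIMs, and dendritic cell markers (6 genes) to 78.1 to 107 CPM and 85.8 to 608 CPM. Endothelium markers (4 genes) were at 51.6 to 110 CPM in LN2E1 TIMs and at most 15.6 CPM elsewhere. Fewer cells of a kind and less RNA per cell cannot be told apart in such libraries.

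Ribosomal protein mRNAs took less than 1% of all counts in every library, and their share was smaller in LN2E1 TIMs than in FVB BM IMs. The share was 0.759%, 0.763% and 0.705% in the 3 FVB BM libraries (0.742% ± 0.0325, SD). In LN2E1 primary TIMs it was 0.381%, 0.468%, 0.410%, 0.384% and 0.454% (0.419% ± 0.0398), and in LN2E1 lymph node TIMs 0.530%, 0.429%, 0.502%, 0.313% and 0.402% (0.435% ± 0.0861). No LN2E1 library reached the lowest FVB BM library. The DBA2 BM libraries had 0.637%, 0.661% and 0.687% (0.661% ± 0.0252). The LN4K1 lung libraries had 0.520%, 0.513%, 0.786%, 0.526% and 0.709% (0.611% ± 0.128), so 3 of them were below every DBA2 BM library and 2 above. Both subunits shared this pattern, with a mean ratio of large to small subunit counts between 1.08 and 1.19 in the 5 groups. No test was run on the share, which sums over genes chosen together.

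**Figure D1:**
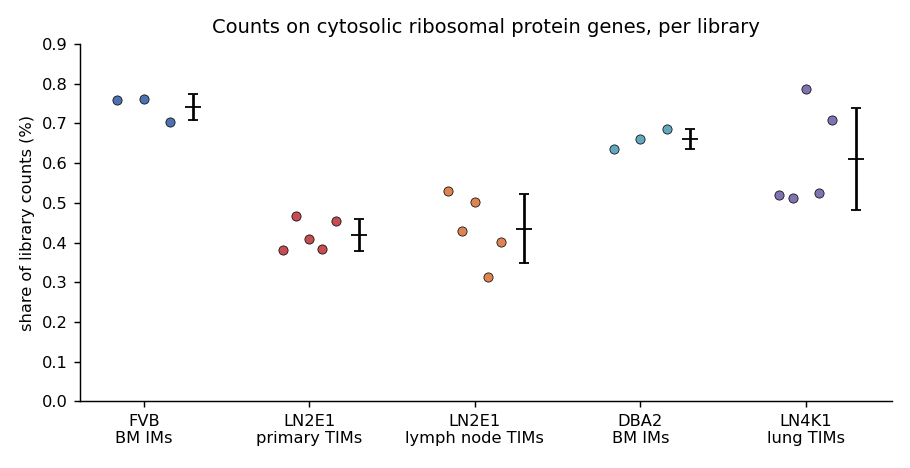
Share of each library's counts (y axis, percent) that fell on the 76 ribosomal protein genes, by group; points are libraries in replicate order, and bars beside them are the mean ± SD. All 10 LN2E1 libraries (0.313% to 0.530%) are below the 3 FVB BM libraries (0.705% to 0.763%), while the LN4K1 lung libraries (0.513% to 0.786%) lie on both sides of the DBA2 BM libraries.

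Libraries within a group moved as a whole. LN4K1 lung replicate 3 had the highest value of its group for 71 of the 75 genes, LN2E1 node replicate 4 the lowest for 71 and node replicate 1 the highest for 56, and FVB BM replicate 3 the lowest for 71. The values of these libraries therefore bear on every gene at once, and the counts without them are given with the comparisons below. The precursor ribosomal RNA row (Rn45s) took 0.623% to 2.04% of counts in FVB BM IMs, 0.109% to 0.207% in DBA2 BM IMs and 0.0183% to 0.0708% in the TIM libraries. Poly(A) priming captures little of that RNA and its share varied within groups, so no level of rRNA was read from it.

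Per kilobase of the principal transcript, the most abundant members over the 21 libraries included Rps9 (570 CPM per kb), Rpl41 (415, the smallest ribosomal protein) and Rpl4 (297). At the other end of the 75 genes that passed the filter were Rpl30 (1.11), Rps15a (2.30) and Rpl29 (3.31). The members are a family with many processed pseudogenes, and 75 of 76 shared at least 1 stretch of 50 bases with an annotated pseudogene (median 8.5 pseudogenes per gene, at most 119 for Rpl7a). A median of 55.7% of the 50-base stretches of a member's principal transcript occurred in no other annotated gene (range 1.35% to 100%), and exons of 37 members overlapped those of another gene. How reads that fit several places were counted is not given in the sources used here, so levels of members that share sequence are uncertain. The log2 CPM per kilobase was weakly related to the unique share across the 75 genes (Pearson 0.13, Spearman 0.13, as a description).

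Most starts of these genes had a run of pyrimidines near them, before or after the start. RefSeq promoter windows (GRCm38.p6, from 250 bases before to 50 after a gene's start) were found for 56 of the 76 genes, with 66 starts in all. Within 50 bases on either side of the start, the longest run of C and T on the gene's strand had a median length of 11 bases, against 7 over all 32851 RefSeq promoters, and it was at least 8 bases long in 81.8% of the members' starts against 35.7%. The windows below show it for 6 members that the results turn on: Rplp2, Rps26, Rpl13a and Rps25, which are described below for their changes, Rpl27a for the longest run among those shown, and Rps9 as the most abundant member. Each is the 30-base stretch around the run, read 5′ to 3′ on the gene's strand, and the capitals mark the run of C and T, which began at positions from -22 (Rps25) to 3 (Rps26) relative to the RefSeq start. The Rps25 run, 14 bases long, ended before that start, so a run found here is not always the 5′ end of the annotated mRNA.
Rplp2 (chr7:141447636-141447665, plus strand): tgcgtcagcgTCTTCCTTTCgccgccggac
Rps26 (chr10:128626485-128626514, minus strand): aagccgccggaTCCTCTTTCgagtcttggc
Rpl13a (chr7:45128722-45128751, minus strand): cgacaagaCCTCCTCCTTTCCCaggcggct
Rps25 (chr9:44407684-44407713, plus strand): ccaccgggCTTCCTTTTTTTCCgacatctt
Rpl27a (chr7:109519186-109519215, plus strand): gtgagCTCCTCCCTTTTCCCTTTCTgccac
Rps9 (chr7:3704024-3704053, plus strand): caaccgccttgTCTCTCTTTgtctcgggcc

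Short motifs were searched in the whole promoter windows on both strands. CTTTCC, letters common at the start of TOP mRNAs, was in 50% of the members' windows and 26.6% of all windows. On the gene's own strand and within 50 bases of the start it was in 31.8% against 4.69%. CCGGAAG, the letters ETS factors such as GABPA bind, was in 36.4% against 8.86%, and AAGATGG, the core of the YY1 motif, in 16.7% against 6.34%. The TATA box letters TATAAA were in 9.09% against 13.6%. No match of one of these motifs overlapped a match of another in the members' windows. In LN2E1 primary TIMs, described below, the median log2 fold change was -0.70 for the 48 members with a run of at least 8 bases and -0.83 for the 8 without, and -0.66 for the 23 members with CCGGAAG and -0.78 for the 33 without it. These counts describe windows, and a match is not a binding site.

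The first comparison asked how TIMs of LN2E1 primary tumors differ from BM IMs of the same strain. Ribosomal protein mRNAs were lower in the TIMs almost throughout: 70 of 75 members fell at an adjusted p under 0.05 (edgeR quasi-likelihood test, Benjamini-Hochberg over all genes tested), and no member rose. Of all 14569 genes tested, 28.6% fell and 33.3% rose. The median log2 fold change over the members was -0.73, a level of 0.601 times that in BM IMs, against 0.08 over all genes tested. The fall was alike for the subunits, at 43 of 45 large subunit genes (median -0.75) and 27 of 30 small subunit genes (median -0.70). The groups did not overlap for 67 members, all lower in TIMs, against 27.4% of all genes. The limits of the study's threshold were an adjusted p under 0.0001 with an absolute log2 fold change above 1. Past these limits, 9 members were called lower (5.18% of all genes), among them Rpl21, Rpl23, Rplp1, Rplp2, Rps15, Rps26, Rps28 and Rpsa. That count rested on the 8 libraries together: it was 0 without FVB BM replicate 1 or without FVB BM replicate 2, 10 without FVB BM replicate 3, and 2 to 5 without any 1 primary library. It was 9 with DESeq2, 4 with the size factors of DESeq2 in edgeR, 3 in a fit of all 5 groups, 0 with the replicate number as a block and 19 when libraries were scaled by their totals alone. The study set its fold limit on shrunken DESeq2 fold changes and then intersected its comparisons. No fold change here was shrunken, those of DESeq2 included, so the study's full criterion was not run in any comparison.

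The stalk proteins included the largest fall. Rplp2 (chr7:141447370-141451585, plus strand) had 39.0, 38.5 and 29.6 CPM in FVB BM IMs, and 13.4, 17.0, 17.1, 11.5 and 14.3 CPM in primary TIMs. Every TIM library was thus below every BM library, and the log2 fold change was -1.30 ± 0.16 (SE, adjusted p = 8.7e-05). Rplp1 (chr9:61913284-61914542, minus strand) fell by 1.17 on the log2 scale (SE 0.12, adjusted p = 2.4e-05), from 98.2 ± 10.6 to 44.1 ± 5.19 CPM (mean ± SD, n = 3 and 5). The scaffold of the stalk, Rplp0, fell by 0.54 (SE 0.09, adjusted p = 0.00069), from 321 to 380 CPM in the BM libraries to 224 to 266 CPM in the TIM libraries.

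Among small subunit genes, Rpsa, which is also known as the laminin receptor precursor, went from 160, 159 and 144 CPM in BM IMs to 71.0, 83.5, 70.9, 71.8 and 84.5 CPM in TIMs (log2 fold change -1.03 ± 0.09, adjusted p = 1.3e-05). Rps6, the ribosomal protein phosphorylated by S6 kinase downstream of mTOR, fell by less: 82.2, 79.8 and 76.0 CPM in BM IMs against 52.9, 63.3, 53.3, 53.0 and 63.1 CPM (log2 fold change -0.49 ± 0.10, adjusted p = 0.0017). Rps19, the gene most often mutated in Diamond-Blackfan anemia, fell by 0.38 on the log2 scale (SE 0.10, adjusted p = 0.01), and Rps3, which lines the mRNA entry channel, by 0.32 (SE 0.09, adjusted p = 0.013). The X-linked Rps4x fell by 0.85 and Rps29 by 0.74, both with every TIM library below the BM libraries. In all of these the 2 groups were apart. A two-sided exact permutation test on log2 CPM gave p = 0.0179 for Rplp2 and for Rpsa, the smallest value that 5 libraries against 3 allow.

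Among large subunit genes Rpl36a fell by 1.12 on the log2 scale (SE 0.20), Rpl21 by 1.08 (SE 0.11) and Rpl22 by 1.06 (SE 0.13), with adjusted p of 0.00083, 3.3e-05 and 0.0001. Rpl22, which T cell development needs, went from 54.5, 54.4 and 44.3 CPM to 21.1, 29, 25.7, 21.2 and 26.2 CPM. Rpl5 and Rpl11, which form the 5S ribonucleoprotein particle that can bind MDM2, fell by 0.83 and 0.66. Rpl13a, known also for the GAIT complex that silences inflammatory mRNAs in myeloid cells, fell by 0.88 (SE 0.10), and Rpl3, a core protein of the peptidyl transferase center, by 0.46 (SE 0.11). The smallest falls that passed the test were those of Rpl10 (log2 fold change -0.23 ± 0.09, adjusted p = 0.044), Rps3, Rps14 (-0.33 ± 0.10) and Rpl41 (-0.34 ± 0.12, adjusted p = 0.027).

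The 5 genes that did not pass the test were Rps2, Rpl34, Rpl17, Rps27 and Rps18. Rps2 had 33.7, 30.8 and 30.4 CPM in BM IMs and 33.9, 34.9, 32.6, 37.2 and 43.0 CPM in TIMs (log2 fold change 0.18 ± 0.11, adjusted p = 0.18). Rpl34 had 5.86, 5.75 and 5.18 CPM against 5.74, 5.02, 7.20, 4.74 and 5.56 CPM, with the groups mixed. Rps27 was among the members with the fewest counts, at 1.36 to 2.74 CPM in these 8 libraries. Only 28.7% of the 50-base stretches of Rps2, 13.3% of those of Rps18 and 1.35% of those of Rps27 were unique to the gene, whereas 62.1% were for Rpl34 and 55.3% for Rpl17.

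**Figure D2:**
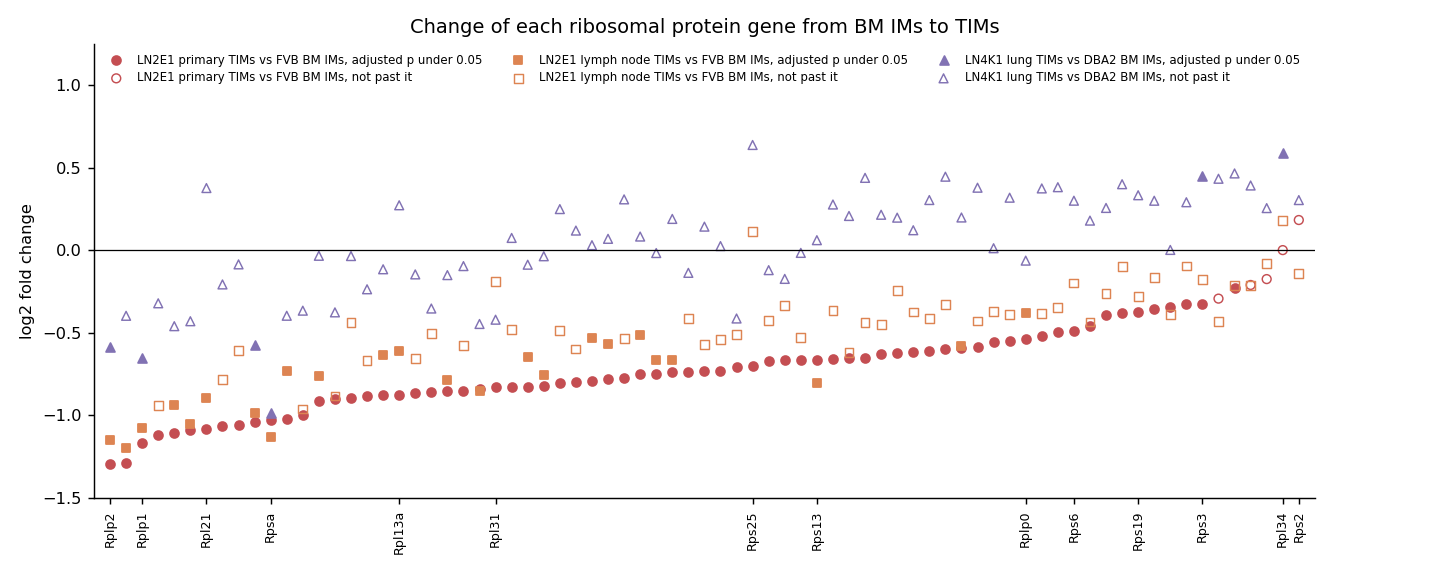
Log2 fold change (y axis) of each of the 75 tested ribosomal protein genes (x axis, ordered by the change in LN2E1 primary TIMs, some genes named) in the 3 comparisons of TIMs with BM IMs of the same strain; filled symbols have an adjusted p under 0.05. The primary TIM values run from -1.30 (Rplp2) to 0.18 (Rps2) with 70 filled, the lymph node values have 24 filled, and the LN4K1 lung values, with 6 filled, lie above the primary values for every gene and above the node values for every gene but Rpl31.

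Sequence shared with other genes was set beside the falls. Members with under 25% unique stretches had a median log2 fold change of -0.66 (15 of 17 fell), those with 25% to 75% one of -0.71 (45 of 48 fell), and those with over 75% one of -0.86 (10 of 10 fell). Across the 75 members the log2 fold change was weakly related to transcript length (Spearman -0.06), GC content (0.06), unique share (-0.23) and mean level (0.18). Length did order the other genes in this comparison, and the members are short (median principal transcript 882 bases against 2921 over all genes). Of 791 other genes with principal transcripts under 1000 bases, 50.1% fell, with a median of -0.45, and 44 of 47 members of that length fell, with a median of -0.67. From 1000 to under 2000 bases 42.7% of 2821 other genes fell (median -0.29) and 21 of 23 members (median -0.75), and of 3970 other genes of 4000 bases or more 16.3% fell (median 0.53). The part of transcript length in the members' fall was not tested beyond these classes.

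The count of 70 at an adjusted p under 0.05 was 57 to 70 when any 1 library was left out, and 69 without FVB BM replicate 3. Cycling markers were a median of 1638 CPM in FVB BM IMs and 141 CPM in primary TIMs, the fibroblast markers 0.0408 and 683 CPM, and the lung epithelium markers 2.30 and 214 CPM. The precursor markers were at 4294 and 78.6 CPM, the macrophage markers at 1256 and 2640 CPM, the dendritic cell markers at 85.7 and 236 CPM, and the endothelium markers at 4.80 and 56.6 CPM. Their part in the result was not tested.

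The second comparison set TIMs of LN2E1 lymph node metastases against the same 3 FVB BM libraries, so it shares its controls with the first. Ribosomal protein mRNAs were lower here too, by less and with fewer calls: 24 of 75 members fell and none rose (17.2% of all genes tested fell and 20.2% rose), and the median log2 fold change was -0.51 against -0.04 over all genes. The fallen members were 14 of 45 large and 10 of 30 small subunit genes. Of 725 other genes with principal transcripts under 1000 bases, 27.7% fell (median -0.30). Of the 47 members of that length 13 fell (median -0.51), a count near that share. From 1000 to under 2000 bases 26.6% of 2609 other genes fell (median -0.27) and 10 of 23 members (median -0.51). The part of transcript length was not tested. The groups did not overlap for 38 members, all lower in TIMs, against 23.2% of all genes. With the replicate number as a block, 11 members fell and the median was -0.36. The count was 10 without FVB BM replicate 1 or without FVB BM replicate 2, 20 without FVB BM replicate 3, 46 without node replicate 1, 22 without node replicate 4, and 56 when libraries were scaled by their totals alone. In the edgeR test no member passed the limits of the study's threshold, past which 1.7% of all genes were lower. An unadjusted p under 0.05 was found for 36 members. DESeq2, the tool of the study, put 4 members past those limits without shrinkage, and the edgeR fit of all 5 groups put 2. In node TIMs the median was 105 CPM for the cycling markers, 15.3 CPM for the precursor markers, 2189 CPM for the macrophage markers, 350 CPM for the dendritic cell markers and 79.3 CPM for the endothelium markers; their part in the result was not tested.

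Rplp2 had 18.7, 17.7, 18.3, 10.1 and 15 CPM in node TIMs (log2 fold change -1.15 ± 0.23, adjusted p = 0.0033), with no overlap with the BM libraries. Rpsa had 90.8, 57.7, 75.9, 50.5 and 74.0 CPM (-1.13 ± 0.19, adjusted p = 0.001). The stalk genes Rplp1 (-1.08 ± 0.20) and Rplp0 (-0.38 ± 0.12) fell as well, with adjusted p of 0.002 and 0.027, as did Rpl13a (-0.61 ± 0.19), Rpl21 (-0.89 ± 0.23) and Rps13 (-0.81 ± 0.24). Rps6 showed the wide spread of the node libraries, with 89.1, 70.3, 72.4, 48.2 and 63.1 CPM, which overlapped the BM range of 76.0 to 82.2 CPM (log2 fold change -0.20 ± 0.19, adjusted p = 0.45). Rpl22 (-0.78 ± 0.29, adjusted p = 0.059) and Rpl36a (-0.94 ± 0.42, adjusted p = 0.11) had large differences with large errors.

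Lymph node and primary tumor TIMs were compared directly. Only Rps25, a small subunit protein needed for translation from certain viral internal ribosome entry sites, differed: it was higher in node TIMs (log2 fold change 0.80 ± 0.22, adjusted p = 0.039), where 6.15% of all genes were called higher and 5.55% lower. Its values were 60.4, 89.9, 65.7, 53.0 and 69.5 CPM in primary TIMs and 128, 150, 147, 67.5 and 91.8 CPM in node TIMs, against 130, 106 and 90.9 CPM in FVB BM IMs. Node replicates 4 and 5 lay in or near the primary range and the others well above it. The two-sided exact permutation test gave p = 0.0317. The call was lost without node replicate 2 or 3, and without any of primary replicates 1, 3, 4 or 5. Rps2 was the 1 member whose groups did not overlap, with every node library (24.7 to 31.7 CPM) below every primary library (32.6 to 43.0 CPM), where 8.87% of all genes were lower without overlap; its log2 fold change was -0.34 ± 0.12 (adjusted p = 0.084). The members had a median of 0.17, with 66 of 75 values above 0, against -0.03 over all genes. For 727 other genes with principal transcripts under 1000 bases the median was 0.18, and for the 47 members of that length 0.17. From 1000 to under 2000 bases it was 0.07 for 2609 other genes and 0.14 for 23 members. The part of transcript length in this median was not tested. Without node replicate 4, 5 members were called higher and the median was 0.27. The median was 0.07, with 53 of 75 values above 0, without node replicate 1, and 0.10 without node replicate 3. A p that missed the threshold does not show that the other 74 genes were equal in the 2 sites.

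The third comparison was of TIMs from LN4K1 lungs with BM IMs of the same strain, DBA2. Here ribosomal protein mRNAs did not fall as a group: 4 of 75 members fell, 2 rose, and the median log2 fold change was 0.07 against 0.03 over all genes tested, of which 11% fell and 13.9% rose. The 4 that fell were Rpsa, Rplp1, Rplp2 and Rps26, and the 2 that rose were Rps3 and Rpl34. The groups did not overlap for 7 members, all higher in TIMs (Rpl10, Rpl34, Rpl7, Rps14, Rps23, Rps3 and Rps9), against 19.2% of all genes. No member passed the limits of the study's threshold, and 8 had an unadjusted p under 0.05 in the edgeR test.

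Rpsa had the largest fall: 49.1, 72.9 and 72.5 CPM in DBA2 BM IMs and 28.0, 26.6, 49.1, 26.4 and 41.4 CPM in lung TIMs (log2 fold change -0.99 ± 0.24, adjusted p = 0.015). Lung replicate 3 was at the level of DBA2 BM replicate 1, and the other 4 lung libraries were below all BM libraries. Rplp1 had 123, 163 and 168 CPM against 84.9, 84.5, 130, 83.2 and 120 CPM (-0.65 ± 0.19, adjusted p = 0.032). Rplp2 had 25.5, 33.9 and 32.8 CPM against 18.9, 18.8, 25.6, 19.5 and 24 CPM (-0.59 ± 0.16, adjusted p = 0.026). For both stalk genes only lung replicate 3 reached the lowest BM library. The two-sided exact permutation test gave p = 0.0536 for Rpsa and for Rplp2. Rplp0, which binds both, had a log2 fold change of -0.06 ± 0.17 (adjusted p = 0.83).

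The members that rose had modest changes. Rps3 had 263, 236 and 265 CPM in BM IMs and 328, 311, 401, 338 and 443 CPM in lung TIMs (log2 fold change 0.45 ± 0.13, adjusted p = 0.036). Rpl34 had 7.15, 6.6 and 7.47 CPM against 9.15, 9.98, 13.8, 11.3 and 11.3 CPM (0.59 ± 0.18, adjusted p = 0.042). In both, every lung library was above every BM library. Rps25 had the highest log2 fold change, with 83.0, 79.1 and 85.8 CPM against 89.8, 82.4, 206, 109 and 186 CPM, and did not pass the test (0.64 ± 0.31, adjusted p = 0.16), its lung values forming a low set of 3 and a high set of 2. Rps6 (0.30 ± 0.21) and Rpl10 (0.47 ± 0.19) did not pass either.

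These few calls rested on single libraries. Without lung replicate 3, 10 members fell, 2 rose and the median was -0.08. The 4 falls dropped to 0 without DBA2 BM replicate 2 or 3 and to 1 without lung replicate 1, 2 or 4, and the 2 rises to 0 without any DBA2 BM library or without lung replicate 4 or 5 and to 1 without lung replicate 2. Scaled by library totals alone, 8 members fell, none rose and the median was -0.16; that scaling also moved the median of all genes, to -0.19 here, -0.33 in node TIMs and -0.09 in primary TIMs. Cycling markers were at a median of 1687 CPM in DBA2 BM IMs and 116 CPM in lung TIMs, and macrophage markers at 844 and 4676 CPM. The precursor markers were at 2962 and 201 CPM, nearer to each other than in the LN2E1 comparisons. Immediate early genes (6 listed) were at 12986 to 22733 CPM in lung TIMs against 10214 to 18284 CPM in DBA2 BM IMs; the part of these markers in the values was not tested.

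The change in LN2E1 primary TIMs was then tested against the change in LN4K1 lung TIMs, as an interaction in 1 fit over the 4 groups, which share no library. The change was lower in the LN2E1 model for 75 of 75 members, with 41 called (13.3% of all genes were called in that direction) and none called the other way (13.2% of all genes). The median difference of the log2 fold changes was -0.72, against 0.08 over all genes. The call was made for 27 of 45 large and 14 of 30 small subunit genes. The largest differences were those of Rpl21 (-1.44 ± 0.25, adjusted p = 0.0014), Rps25 (-1.32 ± 0.37, adjusted p = 0.016) and Rpl13a (-1.13 ± 0.28, adjusted p = 0.0089). Rpl21 was at 26.6 to 34.8 CPM in FVB BM IMs and at 2.53 to 3.16 CPM in DBA2 BM IMs. The part of that strain gap in its difference was not tested. Rps6 (-0.77 ± 0.23, adjusted p = 0.025), Rps19 (-0.69 ± 0.21, adjusted p = 0.028) and Rpl11 (-0.84 ± 0.21, adjusted p = 0.0086) were among those called. Rpl13a shows the pattern plainly: 97.9, 98.2 and 89.0 CPM in FVB BM IMs fell to 46.4, 56, 51.5, 48.9 and 58.5 CPM in primary TIMs, while DBA2 BM IMs at 71.9, 81 and 87.2 CPM stood beside lung TIMs at 69.4, 76.1, 163, 93.1 and 105 CPM.

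Rpsa (-0.02 ± 0.27), Rps2 (-0.10 ± 0.19) and Rps12 (-0.27 ± 0.38) had the smallest differences, with adjusted p of 0.999, 0.77 and 0.65. The log2 fold changes of the 2 models had a Pearson correlation of 0.72 and a Spearman correlation of 0.76 across the 75 genes, as a description, since genes are not replicates and share their libraries. Rplp1, Rplp2 and Rpsa were near the low end in both. The interaction count was 22 and 24 without FVB BM replicate 1 or 2, 40 without FVB BM replicate 3, 25 without DBA2 BM replicate 1 or 2, and 44 without lung replicate 3, with a median of -0.57 in the last case. Short genes other than the members also differed between the models in this direction, with 37% of 841 genes under 1000 bases called and a median of -0.63, against 4.9% and 0.55 for 4085 genes of 4000 bases or more.

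**Figure D3:**
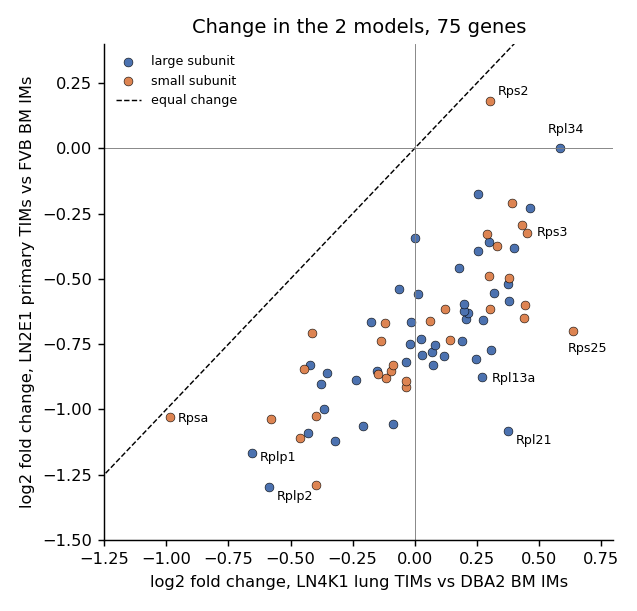
Log2 fold change of the 75 tested genes in LN2E1 primary TIMs against FVB BM IMs (y axis) and in LN4K1 lung TIMs against DBA2 BM IMs (x axis), by subunit; the dashed line marks equal change. All 75 points lie below the line, Rpsa closest to it and Rpl21 and Rps25 far from it.

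The BM IMs of the 2 strains were compared without any tumor. Most members differed little, with a median log2 difference (DBA2 minus FVB) of -0.17 against 0.00 over all genes. For other genes with principal transcripts under 1000 bases the median was -0.22, against -0.15 for members of that length. From 1000 to under 2000 bases both medians were -0.20. The part of transcript length was not tested. By call, 3 members were higher in DBA2 and 9 lower, where 11.5% and 9.57% of all genes were. Of these 12, Rpl21, Rps15a, Rpsa and Rps2 differed by more than 1 on the log2 scale. Rpl21 (chr5:146832890-146837032, plus strand) had 34.8, 32.6 and 26.6 CPM in FVB BM IMs and 2.53, 2.95 and 3.16 CPM in DBA2 BM IMs, a log2 difference of -3.42 ± 0.18 (adjusted p = 2.7e-05). The gap held in TIMs: Rpl21 was at 11.4 to 22.6 CPM in the 10 LN2E1 libraries and at 2.97 to 5.45 CPM in the 5 LN4K1 libraries, so the FVB-strain and DBA2-strain libraries did not overlap. An exact permutation test of 3 libraries against 3 cannot give a two-sided p below 0.1.

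Rps2 went the other way, with 30.4 to 33.7 CPM in FVB BM IMs and 89.8, 79.4 and 78.6 CPM in DBA2 BM IMs (log2 difference 1.41 ± 0.11, adjusted p = 0.00015). It was at 24.7 to 43.0 CPM in all 10 LN2E1 TIM libraries and at 84.6 to 131 CPM in all 5 LN4K1 TIM libraries. Rps15a was at 22.0, 22.5 and 18.7 CPM in FVB and 7.32, 8.31 and 8.47 CPM in DBA2 BM IMs (-1.37 ± 0.16, adjusted p = 0.0011), and its TIM libraries overlapped, since node replicate 4 had 6.30 CPM and lung replicate 3 had 9.72 CPM. Rpsa differed by -1.22 ± 0.16 (adjusted p = 0.0018), Rplp0 by -0.59 ± 0.09, Rps3 by -0.48 ± 0.10 and Rps29 by -0.41 ± 0.11. Rplp1 (0.65 ± 0.14) and Rpl35a (0.68 ± 0.16) were higher in DBA2. In TIMs as in BM IMs, Rpl35a was lower in the FVB strain, at 4.01 to 8.60 CPM against 10.8 to 20.1 CPM.

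Sequence shared with other genes differed among these members. Rpl21 shared 50-base stretches with 81 pseudogenes and Rps2 with 71, and 73.8% and 28.7% of their stretches were unique, while Rpsa shared with 27 pseudogenes and Rps15a with 9. Both strains were aligned to a single reference genome, and the part of strain differences in sequence was not tested. Fewer or more calls were made without single libraries: 20 lower without FVB BM replicate 3, 4 without FVB BM replicate 2 or DBA2 BM replicate 2, 5 without FVB BM replicate 1 or DBA2 BM replicate 3, and 1 higher without DBA2 BM replicate 2 or 3.

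**Figure D4:**
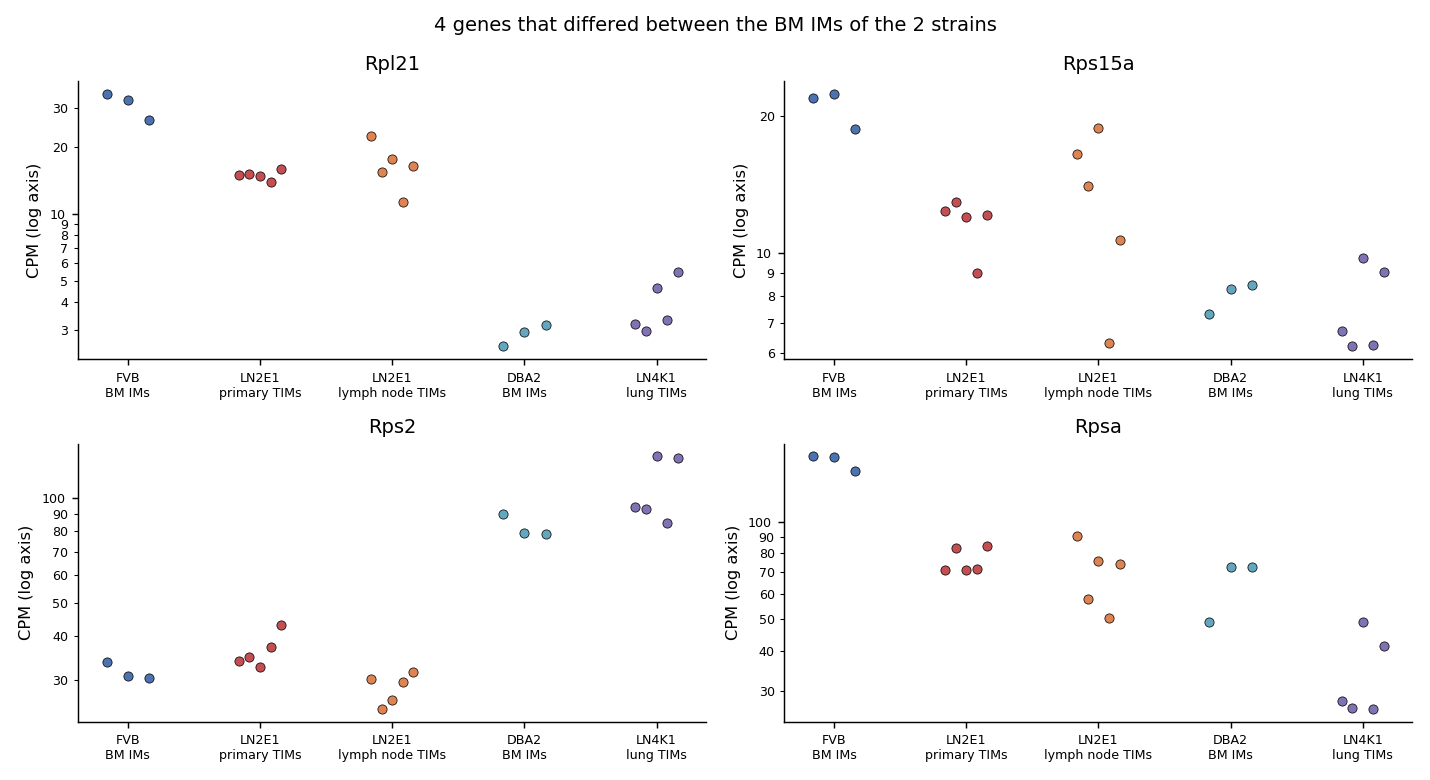
CPM per library (log y axis) of Rpl21, Rps15a, Rps2 and Rpsa in the 5 groups, each point a library. Rpl21 is at 11.4 CPM or more in all FVB-strain libraries and at 5.45 CPM or less in all DBA2-strain libraries, and Rps2 is at 43.0 CPM or less and 78.6 CPM or more, respectively.

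Ribosomal proteins outside the name pattern were also lower in LN2E1 primary TIMs. Fau, which encodes a ribosomal protein fused to a ubiquitin-like protein, fell there by 0.56 (SE 0.11) on the log2 scale, and Rps3a1 by 0.78 (SE 0.10). Gnb2l1 (Rack1), a scaffold on the small subunit, went from 327 ± 26.3 to 181 ± 10.5 CPM (log2 fold change -0.87 ± 0.08, adjusted p = 1.9e-05). Of the 10 paralogs and fusions tested, 7 fell and 2 rose, where 28.6% of all genes fell and 33.3% rose. The 2 that rose were Rpl3l, a muscle paralog of Rpl3, from 0.925 ± 0.229 to 4.96 ± 0.962 CPM (2.41 ± 0.29, adjusted p = 7.6e-05), and Rpl39l, a paralog best known from testis, from 0.105 ± 0.145 to 3.35 ± 1.72 CPM (adjusted p = 0.0029). Rpl3l also rose in node TIMs (to 12.0 ± 3.24 CPM, 3.71 ± 0.39, adjusted p = 6.4e-05) and in LN4K1 lung TIMs (from 0.509 ± 0.162 to 4.07 ± 0.98 CPM, 2.93 ± 0.38, adjusted p = 0.00043), and it was called higher in node than in primary TIMs. In the primary comparison Rpl39l could pass the filter on low counts only with its TIM libraries, since its BM level was too low. Its direction there was thus fixed by the filter, and its call is no result. Rpl39l did not pass the test in node TIMs (0.258 ± 0.249 CPM, adjusted p = 0.59) and was too low to be tested in LN4K1 lung.

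The mitochondrial ribosome is built from other nuclear genes. Of 76 mitochondrial ribosomal protein genes, 71 fell and 1 (Mrpl52) rose in LN2E1 primary TIMs, with a median log2 fold change of -0.76. In node TIMs 47 fell and 2 rose (median -0.65), in LN4K1 lung TIMs 3 fell and 7 rose (median 0.08), and 66 of 76 differed between the models, all with the lower change in LN2E1. Of all genes tested, 28.6% fell and 33.3% rose in primary TIMs, and 17.2% fell and 20.2% rose in node TIMs. In LN4K1 lung TIMs 11% fell and 13.9% rose, so the lung counts of this list were below the shares over all genes. Between the models 13.3% of all genes were called in that direction. The extremes in primary TIMs were Mrpl44 (24.7 ± 3.96 to 8.32 ± 0.765 CPM, -1.59 ± 0.14) and Mrpl52 (43.7 ± 6.15 to 74.5 ± 10.3 CPM, 0.76 ± 0.14).

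Of 39 tested genes for building ribosomes (nucleolar proteins, assembly factors and subunits of RNA polymerase I), 25 fell and 1 rose in primary TIMs (median -0.43), 15 fell and 1 rose in node TIMs (-0.52), and 4 fell and 2 rose in LN4K1 lung TIMs (-0.06), where 11% of all genes fell and 13.9% rose, so the count of falls in lung was near the share over all genes. In primary TIMs 28.6% and in node TIMs 17.2% of all genes fell. The box H/ACA proteins, which guide pseudouridylation of rRNA, included the 3 lowest values, with Dkc1 at -1.26 ± 0.12, Gar1 at -1.17 ± 0.14, Nhp2 at -1.10 ± 0.11 and Nop10 at -0.94 ± 0.11 in primary TIMs. Dkc1, Gar1, Fbl (the rRNA methyltransferase fibrillarin) and Ncl (nucleolin) were the 4 that also fell in LN4K1 lung TIMs, by 0.80, 0.83, 0.77 and 0.43. Rrp12, an assembly and export factor, rose in primary TIMs (1.21 ± 0.17) and node TIMs (1.04 ± 0.30).

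Of 19 tested translation factors and other mRNAs with a 5′ TOP, 15 fell and 1 rose in primary TIMs (median -0.45), 6 fell and 1 rose in node TIMs, and 1 fell in LN4K1 lung TIMs. The shares of all genes that fell were 28.6%, 17.2% and 11%, so the count in lung was below the share over all genes. Nap1l1 fell in all 3 comparisons (-1.16 ± 0.09, -1.02 ± 0.12 and -0.82 ± 0.22), and Naca (-0.93 ± 0.12) and Npm1 (-0.90 ± 0.12) were other large falls in primary TIMs. Eef2, the elongation factor that moves the ribosome along the mRNA, had a log2 fold change of 0.01 ± 0.12 there (adjusted p = 0.92), and Vim, a 5′ TOP mRNA that encodes the filament protein vimentin, rose by 0.62 ± 0.12. Of 7 small nucleolar RNA host genes, 6 fell in primary TIMs and 3 in node TIMs, where 28.6% and 17.2% of all genes fell. None passed the test in LN4K1 lung TIMs, where the lowest adjusted p of the edgeR test was 0.063 (Snhg5). Snhg8 (-1.33 ± 0.19) and Snhg5 (-1.23 ± 0.15) were the lowest in primary TIMs, and Gas5 fell by 0.67 (SE 0.12).

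**Figure D5:**
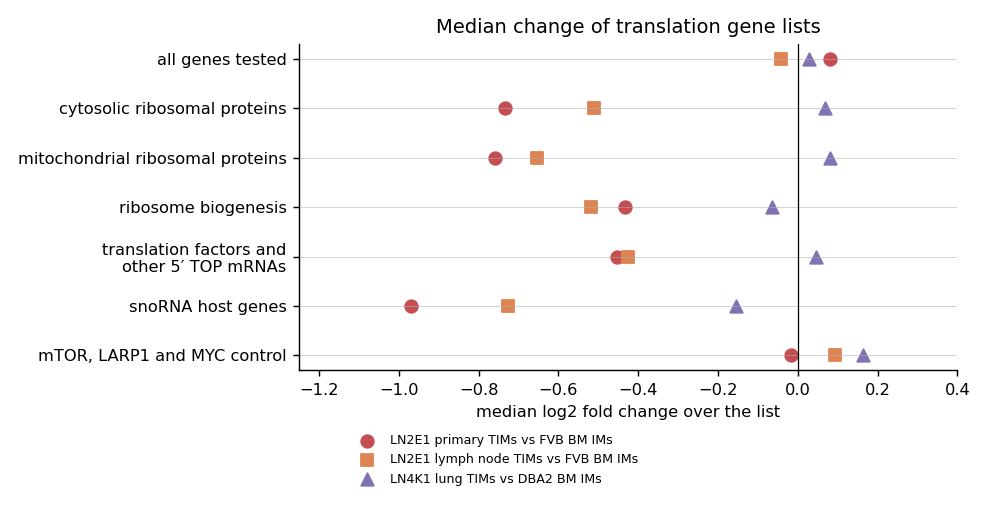
Median log2 fold change (x axis) over each gene list and over all genes tested (rows), in the 3 comparisons of TIMs with BM IMs. Cytosolic and mitochondrial ribosomal protein genes are at -0.73 and -0.76 in LN2E1 primary TIMs, at -0.51 and -0.65 in lymph node TIMs, and at 0.07 and 0.08 in LN4K1 lung TIMs.

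Of 20 tested genes that control ribosomal protein expression, 7 rose and 5 fell in primary TIMs, with a median of -0.02. These counts were near the shares over all genes, of which 33.3% rose and 28.6% fell, so they are no result about the list. In node TIMs 6 of 19 rose and 3 fell, where 20.2% of all genes rose and 17.2% fell. In LN4K1 lung TIMs Mxd1 alone of 19 passed the test. Of all genes 13.9% rose and 11% fell there, so the lung count was below the share over all genes. Myc, which drives ribosomal genes, had 24.4 ± 4.86 CPM in FVB BM IMs and 76.3 ± 20.2 CPM in primary TIMs (1.63 ± 0.24, adjusted p = 0.00034), and Mxd1, which competes with MYC for their common partner Max, had 43.8 ± 11.6 and 853 ± 97.4 CPM (4.27 ± 0.21, adjusted p = 3.7e-07). Mxd1 also rose in node TIMs (4.17 ± 0.29) and LN4K1 lung TIMs (1.34 ± 0.22, 46.1 ± 7.43 to 122 ± 28.1 CPM), and its rise was larger in the LN2E1 model (difference 2.94 ± 0.29, adjusted p = 2.7e-05). Myc did not pass the test in node TIMs (0.20 ± 0.25) or in LN4K1 lung TIMs (-0.61 ± 0.24, adjusted p = 0.092). Mtor, Rptor and Max rose in primary and node TIMs, by 0.64, 1.48 and 1.49 in primary TIMs, while Larp1 (-0.35 ± 0.12) and Rps6kb1 (-0.35 ± 0.11), an S6 kinase gene, fell there. Mycn, with 0 counts in all 3 FVB BM libraries, had 0.233 ± 0.0777 CPM in primary TIMs and was among the 7. It could pass the filter on low counts only through its primary TIM libraries. Its direction was thus fixed by the filter, and its call is no result.

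The genes whose profile over the 21 libraries was most like the family's mean included, among 4753 other genes with a mean log2 CPM of at least 5, Nop10 (Pearson 0.98), Gnb2l1, Naca and Eef1b2 (each 0.97). After the group means were removed, the values were 0.97, 0.96, 0.93 and 0.96. Others near the top were genes of the respiratory chain and ATP synthase, Uqcr10, Atp5j2 and Ndufa13. The points share their libraries, so these values describe likeness only.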

How the data were processed

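RNA-Seq libraries of sorted IMs (non-stranded SMART ultra-low input and Nextera XT kits) were deposited as 1 table of raw counts per gene, which the authors made by trimming with BBDuk, aligning paired reads to mm10 (GRCm38) with BBMap, and counting with featureCounts 1.5.2 after SAMtools 1.8, per the labels and the study's methods. The treatment of reads that fit several places is not given in the sources used here. Samples were grouped by the labels. The members and gene lists were chosen with earlier results of these data known.

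For every comparison, only the libraries of its groups were fitted, in edgeR 4.0.16 (R 4.3.3) after filterByExpr (minimum count 10, minimum total 15), with TMM scaling, robust quasi-likelihood F tests and Benjamini-Hochberg adjustment over all genes tested, and a gene was called at an adjusted p under 0.05. The study fitted DESeq2, which was used here (1.42.0) as an alternative, without the study's shrinkage of fold changes. CPM were scaled by TMM over the 21 libraries, and log2 CPM had a prior count of 2. Of 23420 rows, 3910 were at 0 in every library. Gene positions, principal transcripts and pseudogenes came from GENCODE vM21 (GRCm38) and promoters from RefSeq. The fits were tested on simulated counts.

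Replicate numbers are shared by the groups of a comparison. In lymph node TIMs and FVB BM IMs all 3 same-numbered pairs deviated together from their group means (correlations 0.149 to 0.467), so the fit with the number as a block is given beside that result; no label says what the numbers mark. In the other comparisons at least 1 pair had a correlation under 0.1.

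Named members were a fixed set of well-known ones and the 3 highest and 3 lowest log2 fold changes of each comparison; named related genes were the paralogs and fusions, the extremes of each list and the 5 nearest profiles. A few genes that this rule names are not reported here. All other genes named were chosen after their values were seen.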

Additional observations from a re-analysis of the deposited data

Results flagged for a closer look

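The 31 named members were among the values searched for a library far from the others of its group, in the 3 groups of 5 libraries. Of 102 values tested, 1 stood apart: Rps15a in LN2E1 primary replicate 4, at 8.995 CPM, below the 12.0 to 13.0 CPM of the other 4 libraries. Chance alone marks about 1 in 20 groups, so 1 mark among 102 is no result about Rps15a.

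For 13 of the named members the change from BM IMs to TIMs differed between the LN2E1 primary and LN4K1 lung models in the edgeR interaction test. Some members were named for extreme values in this test or in the changes it compares, so the choice partly fixed this count. Over the family 41 of 75 members were called in this direction, against 13.3% of all genes. The differences of the log2 fold changes, LN2E1 minus LN4K1, were -1.44 for Rpl21, -1.32 for Rps25, -1.13 for Rpl13a, -0.84 for Rpl11, -0.84 for Rpl22, -0.77 for Rps6, -0.76 for Rps3, -0.70 for Rps13, -0.70 for Rps15a, -0.69 for Rplp2, -0.69 for Rps19, -0.67 for Rpl10 and -0.62 for Rpl3.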

How the results depend on the processing

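With any 1 library left out, the number of members called lower was 57 to 70 in LN2E1 primary TIMs, 10 to 46 in lymph node TIMs, 0 to 10 in LN4K1 lung TIMs (0 to 2 higher), 4 to 20 between the strains (1 to 3 higher) and 22 to 48 in the interaction, and 0 to 5 members were higher in node than in primary TIMs. Scaled by library totals alone, the median log2 fold change was -0.90 in primary TIMs and -0.79 in node TIMs, 56 members fell in node TIMs, 8 fell and 0 rose in LN4K1 lung TIMs, and node against primary gave 1 lower and 0 higher. That scaling moved the median of all genes from 0.08 to -0.09, from -0.04 to -0.33 and from 0.03 to -0.19 in the 3 comparisons with BM IMs. With the replicate block, 11 members fell in node TIMs, and 0 fell and 0 rose in LN4K1 lung TIMs; the counts were 54 lower in primary TIMs, for the strains 7 lower and 3 higher, and for the interaction 33. Only for node TIMs against FVB BM IMs did all 3 same-numbered pairs correlate above 0.1, and what the numbers mark is not known. In LN4K1 lung 2 of 3 TIM libraries correlated best with their own number, and in primary TIMs 0 of 3. Without a filter on low counts 1 member rose in LN4K1 lung TIMs, DESeq2 called 1 member lower in node than in primary TIMs, and a fit of all 5 groups gave 5 members lower between the strains. With the study's fold limit, on fold changes that were not shrunken, but an adjusted p under 0.05, 5 members were lower in node TIMs, 3 lower and 1 higher between the strains, and 7 in the interaction. Without the 10 most abundant other genes the share was 0.831% in FVB and 0.736% in DBA2 BM IMs. The cause of these shifts was not tested. Of 1080 values of 62 called results on single members under all alternatives, 907 kept their direction and call, 173 kept their direction and lost the call, and none reversed. Rpl26, with no more than 4 reads in any library, was below the filter on low counts, and the cause of its low count was not tested.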
